A study of Macaca fascicularis with 34 samples.

Results

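Single cells taken from cynomolgus monkey (Macaca fascicularis, subspecies fascicularis) embryos at embryonic day (E) 20 were compared by their level of NANOG, a homeobox transcription factor of pluripotent and early germ cells. Of the 34 cells of the series, 8 came from E20. Cells with NANOG at 400 RPM (reads relative to a fixed library size) or more were set against cells with NANOG under 150 RPM. This rule put 2 cells, E20 cells 5 and 8, on the high side and 6 cells, E20 cells 1, 2, 3, 4, 6 and 7, on the low side, with 0 cells between the bounds. The groups were chosen by NANOG in these same cells, so its values and every gene of the same comparison are given as a description, without a test. Each sample was 1 cell whose cDNA was amplified and read at transcript 3′ ends (SC3-seq). The labels of the E20 cells give stage, tissue and subspecies but no animal, sex or cell type. Cells were therefore not taken as replicates, and no p-value was computed. All 8 cells were untreated embryo cells of the same stage. Cells 1 to 7 carry the code MS08 in their labels and cell 8 carries MS09, a code that all E16 cells of the series also carry. What the code stands for is not stated, and for cell 8 it cannot be told apart from the cell itself.

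Primordial germ cells are the embryonic founders of eggs and sperm. In primates they are specified around the time of gastrulation under BMP and WNT signals, and SOX17, TFAP2C and PRDM1 are the transcription factors known to drive their specification, while NANOG and POU5F1 are kept on from pluripotent cells. The neighbouring cells of the embryo at this age form primitive streak, mesoderm and extraembryonic mesenchyme, which are marked by T, MSGN1 and HAND1 and by collagen and fibronectin genes.

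The 8 E20 cells had 1072323 to 2711018 reads each, with cell 8 the deepest and cell 5 at 1186741 reads, and 5261 (cell 8) to 7658 genes (cell 1) reached 15 RPM. A level of 15 RPM, the floor used throughout, corresponds to 16.1 to 40.7 reads in these cells, and a gene listed at 0 could have been at up to 3 reads, or 1.11 to 2.80 RPM. Cells of other stages serve as reference levels. Those called gonadal pool 6 cells from E36, 1 from E47 and 2 from E55. The labels of the gonadal cells carry an m after the stage, and what it stands for is not stated. E16 cell 8 stood apart from the other 10 E16 cells, with 8106 genes at 15 RPM and mesoderm transcripts (HAND1 at 1660 and FN1 at 11411 RPM). Most E16 levels are therefore given for those 10 cells and for cell 8 separately.

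NANOG was at 534 RPM in cell 5 (634 reads, exact Poisson 95% interval 493 to 577 RPM) and at 566 RPM in cell 8 (1534 reads, 538 to 595 RPM). In the other cells it was at 0.687 RPM (cell 1), 2.96 RPM (cell 2), 3.20 RPM (cell 3), 124 RPM (cell 4), 0.681 RPM (cell 6) and 0 (cell 7). The cell just inside the upper bound was thus cell 5 and the cell just under the lower bound was cell 4, whose 124 RPM rested on 165 reads (interval 106 to 145 RPM). The label of a group without NANOG therefore holds for 5 of the 6 low cells, which had 0 to 5 NANOG reads each, and not for cell 4. All cells of the other stages had more NANOG than cell 4: 10 E16 cells were at 400 RPM or more, E16 cell 8 was at 222 RPM, E17 cells 1 and 2 were at 1221 and 576 RPM, and gonadal cells ran from 479 to 1323 RPM. In the whole series 27 cells met the upper bound, and the 6 cells under the lower bound were all from E20. NANOG and POU5F1 have processed copies in primate genomes, and how reads shared with such copies were counted is not given in the sources used here.

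**Figure D1:**
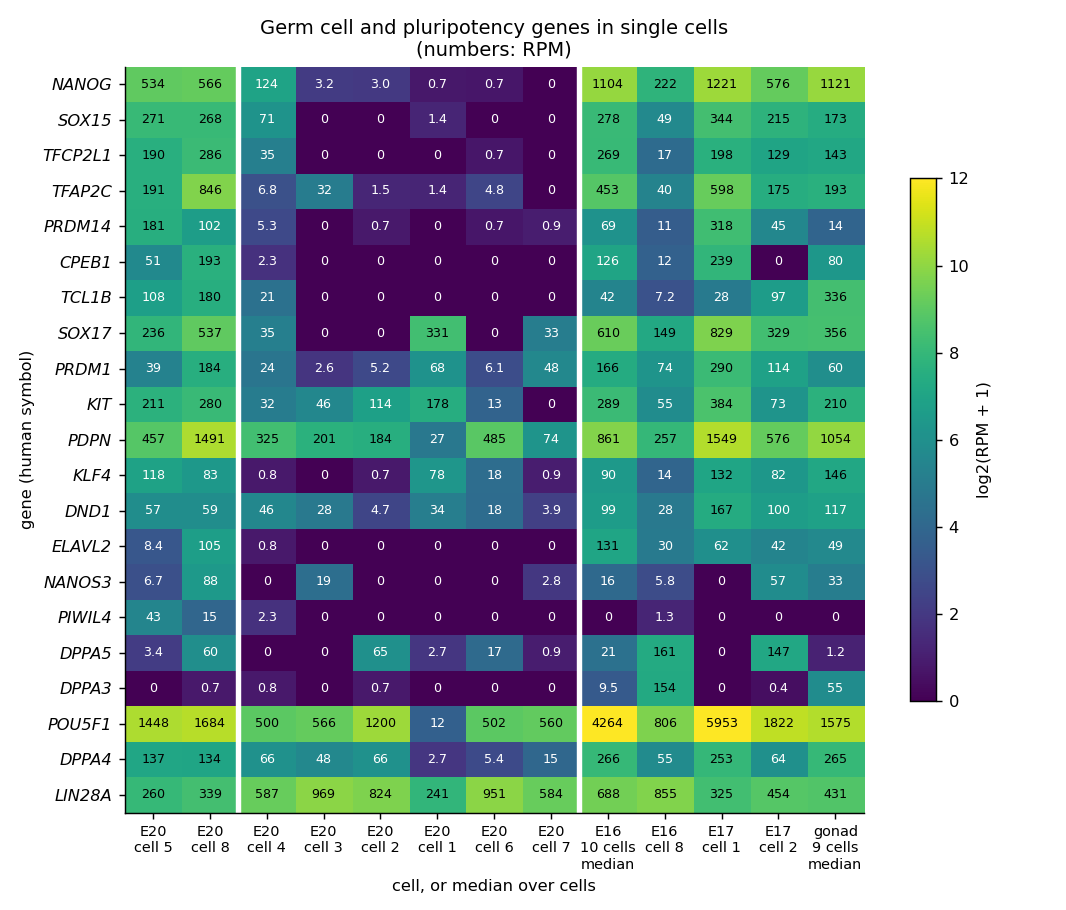
Levels of germ cell and pluripotency genes (rows) in the 8 E20 cells, as RPM (numbers) and log2(RPM + 1) (colour), with reference columns for E16, E17 and gonadal cells. White lines set off cells 5 and 8, the 6 cells with NANOG under 150 RPM, and the reference columns. SOX15 is at 271 and 268 RPM in cells 5 and 8 and at 0 to 71.5 RPM in the other 6, where cell 4 holds the 71.5.

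The germ cell transcription factors separated the groups to different degrees. TFAP2C, an AP-2 factor required for primordial germ cells, was at 191 RPM in cell 5 and 846 RPM in cell 8, and at 1.37, 1.48, 32, 6.77, 4.77 and 0 RPM in cells 1, 2, 3, 4, 6 and 7. Cells 5 and 8 lay above all 6, and cell 3 was the highest of the low group. PRDM14, a regulator of germline pluripotency, was at 181 and 102 RPM in cells 5 and 8 against 0, 0.739, 0, 5.27, 0.681 and 0.933 RPM in cells 1, 2, 3, 4, 6 and 7. The groups did not overlap and no low cell reached the floor. PRDM14 in cells 5 and 8 was also above every E16 cell, by little in cell 8. Levels in E16 cells ran from 10.7 to 99.3 RPM, and in gonadal cells PRDM14 had a median of 13.8 RPM.

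SOX15, an SRY-box factor, was at 271 and 268 RPM in cells 5 and 8 and at 1.37, 0, 0, 71.5, 0 and 0 RPM in cells 1, 2, 3, 4, 6 and 7. TFCP2L1, a factor of naive pluripotency, was at 190 and 286 RPM against 0, 0, 0, 35.4, 0.681 and 0 RPM in the same order. For both genes the groups were apart and cell 4 alone of the low group held more than 2 RPM.

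SOX17, the endoderm and germ cell factor, did not separate the groups. It was at 236 RPM in cell 5 and 537 RPM in cell 8, and at 331, 0, 0, 35.4, 0 and 32.6 RPM in cells 1, 2, 3, 4, 6 and 7. Cell 1 exceeded cell 5, and that cell carried endothelial transcripts described further on. PRDM1, the repressor of the somatic programme in germ cells, was at 38.8 and 184 RPM in cells 5 and 8 and at 68.0, 5.17, 2.56, 24.1, 6.13 and 47.6 RPM in the low cells in the same order. Cells 1 and 7 were above cell 5. SOX17 in cell 8 lay near the median of the 10 E16 cells, 610 RPM, and in cell 5 it lay nearer to that of E16 cell 8, 149 RPM.

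Genes of germ cell surface, RNA control and survival gave a mixed picture. KIT, the receptor for stem cell factor, was at 211 and 280 RPM in cells 5 and 8 and had a lowest level of 0, a median of 38.8 and a highest level of 178 RPM (cell 1) in the low cells. PDPN, podoplanin, was at 457 and 1491 RPM against 26.8, 192 and 485 RPM as lowest, median and highest, so cell 6 exceeded cell 5. DND1, an RNA-binding protein that protects germ cells, was at 57.3 and 58.9 RPM against 3.90, 22.9 and 45.9 RPM. The gap for KIT and DND1 was under the factor of 2 on which calls rested.

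CPEB1, a regulator of mRNA polyadenylation, was at 51.4 and 193 RPM in cells 5 and 8, at 2.26 RPM in cell 4 and at 0 in the other 5. TCL1B, a gene of the TCL1 family of AKT co-activators, was at 108 and 180 RPM in cells 5 and 8, at 21.1 RPM in cell 4 and at 0 in the other 5. Cell 4 was again the only low cell with reads of either gene. KLF4, a factor of naive pluripotency, was at 118 and 83.0 RPM against 78.4 RPM in cell 1, 18.4 RPM in cell 6 and at most 0.933 RPM in cells 2, 3, 4 and 7.

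Some germ cell genes were at the floor in cell 8 but not in cell 5. ELAVL2, a neuronal and germ cell RNA-binding protein, was at 8.43 RPM in cell 5 and 105 RPM in cell 8, and at most 0.752 RPM in the low cells. NANOS3, a translational repressor needed for germ cell survival, was at 6.74 and 87.8 RPM, with cell 3 at 19.2 RPM between them. PIWIL4, a PIWI protein of the piRNA pathway, went the other way, at 43.0 RPM in cell 5 and 14.8 RPM in cell 8 against at most 2.26 RPM in the low cells. DPPA3, a gene of oocytes and germ cells, was at or under 0.752 RPM in all 8 E20 cells, while its median over 9 gonadal cells was 55.4 RPM.

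Of the 22 germ cell specification genes other than NANOG, 18 reached 15 RPM in at least 1 E20 cell, and CD38, DPPA3, TCL1A and UTF1 did not. A gene was called higher when it had at least 15 RPM in cells 5 and 8 and the lower of them was at least 1 unit of log2(RPM + 1) above the highest of the 6 others, and called lower when all 6 others had 15 RPM and the direction was turned. Of the 18, 6 were called higher (TFAP2C, PRDM14, SOX15, TFCP2L1, CPEB1 and TCL1B) and 0 lower, where 0.82% of all 11827 genes tested were called higher and 1.31% lower. These genes were measured in the cells that NANOG chose, so nothing is read from that difference. The median difference of mean log2(RPM + 1) over the 18 was 4.44, against -0.46 over all genes tested. Taken cell by cell it was 3.90 for cell 5 and 4.82 for cell 8 against the 6 low cells, where all genes gave -0.10 and -0.85. With the 22 genes counted together, 14 reached 15 RPM in cell 5 and 15 in cell 8, and 4 to 9 did in a low cell, the 9 being in cell 4.

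Pluripotency genes other than NANOG varied in direction. POU5F1, the core pluripotency factor, was at 1448 and 1684 RPM in cells 5 and 8 and at 11.7, 1200, 566, 500, 502 and 560 RPM in cells 1, 2, 3, 4, 6 and 7. It was thus well above the floor in 5 of the 6 cells with little NANOG, and cell 1 alone was low. DPPA4, a chromatin-associated pluripotency gene, was at 137 and 134 RPM against a lowest level of 2.75, a median of 31.4 and a highest level of 66.5 RPM, which put the groups apart. LIN28A, which blocks maturation of let-7 microRNAs, overlapped, at 260 and 339 RPM against 241 to 969 RPM, while its paralogue LIN28B was lower, at 43.0 and 2.95 RPM against 131 to 273 RPM. SOX2 was listed among 6 of 21 pluripotency genes that reached 15 RPM in none of the 8 cells. Of the 15 measured, 2 were called higher (PRDM14 and TFCP2L1, both also on the germ cell list) and 1 lower (LIN28B). Of all genes tested 0.82% were called higher and 1.31% lower. The median difference of the 15 was 1.47, against -0.46 over all genes tested.

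Genes of later germ cells and of the piRNA pathway were mostly silent in these cells: 8 of 23 reached 15 RPM in any E20 cell. Of these 0 were called, where 0.82% of all genes tested were called higher and 1.31% lower. The median difference of the 8 was 2.49, against -0.46 over all genes tested. Cell by cell that median was 0 for cell 5 and 1.59 for cell 8 against the low cells. RNF17, a Tudor domain protein of male germ cells, was at 89.3 RPM in cell 8 and at 0 in the other 7, and STK31 was at 55.7 RPM in cell 8 and at 0 in the other 7. RNF17 was also at 0 in all 11 E16 cells and reached 15 RPM in 5 of 9 gonadal cells. DAZL and DDX4, markers of germ cells that have reached the gonad, were at or under 0.843 RPM in every E20 cell.

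Across the transcriptome 97 of 11827 genes tested (0.82%) were called higher in cells 5 and 8 and 155 (1.31%) were called lower. Of the genes tested, 3908 (33%) had 15 RPM in cells 5 and 8 and 2641 (22.3%) in all 6 others. NANOG is 1 of the 97, and 91 of the 97 and 147 of the 155 have a human symbol in the table. Because cells 5 and 8 are few, the counts moved with the cells that entered. Without cell 5 they were 691 higher and 634 lower, and without cell 8, which is also the comparison within code MS08, 595 and 291. Leaving out cell 4 gave 146 higher, and leaving out cell 2 gave 239 lower. Scaling by the median of ratios gave 121 higher and 127 lower and moved the median difference of all genes from -0.46 to -0.32.

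**Figure D2:**
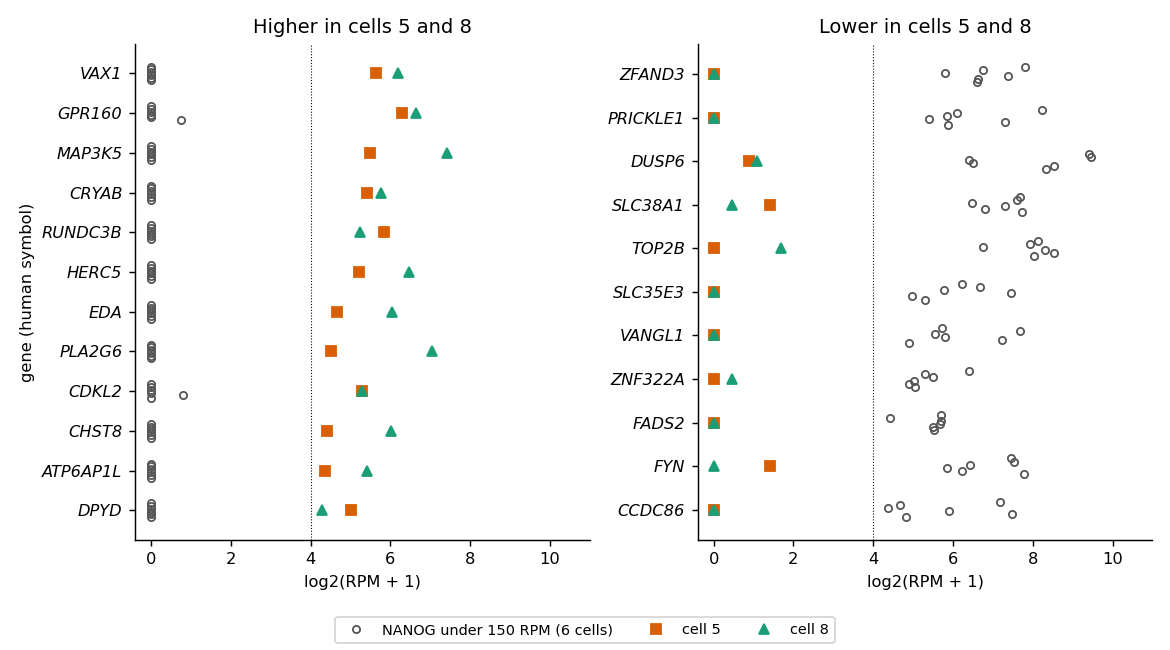
Genes with the widest gap in each direction, 12 higher (left) and 11 lower (right), as log2(RPM + 1) on the horizontal axis. Squares are cell 5, triangles cell 8 and open circles the 6 cells with NANOG under 150 RPM, and the dotted line marks 15 RPM. In the left panel the low cells sit at or near 0, and in the right panel cells 5 and 8 do.

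The genes with the widest gap toward cells 5 and 8 were mostly silent in the low cells. VAX1, a homeobox factor known from the ventral forebrain and eye, was at 48.9 RPM in cell 5 and 71.6 RPM in cell 8 and at 0 in all 6 others. GPR160, an orphan G protein-coupled receptor, was at 77.5 and 99.6 RPM, with 0.687 RPM in cell 1 and 0 in the other 5. The stress-activated kinase gene MAP3K5 was at 43.8 and 171 RPM against 0 in all 6. At these depths a 0 leaves room for up to 2.80 RPM. That limit covers counting error only, and these genes were named for the width of their gap, so nothing is read from the separation.

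CRYAB, a small heat shock protein, was at 41.3 and 53.5 RPM in cells 5 and 8 and at 0 in the 6 others, and in the 10 E16 cells it reached at most 2.54 RPM. HERC5, a ligase for the ubiquitin-like protein ISG15, was at 36.2 and 88.2 RPM against 0. RUNDC3B was at 56.5 and 36.5 RPM against 0. Expression of CRYAB in cells 5 and 8 was thus not matched in E16 cells, whereas RUNDC3B reached 15 RPM in 4 of 11 E16 and 7 of 9 gonadal cells. The other 6 genes with the widest gap were EDA (the ligand ectodysplasin), PLA2G6 (a phospholipase), CDKL2 (a kinase), CHST8 (a sulfotransferase), ATP6AP1L and DPYD (the enzyme of pyrimidine breakdown), with 18.4 to 37.9 RPM in the lower of cells 5 and 8 and at most 0.739 RPM in any low cell.

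Among called genes outside these 12, several of higher level were picked out after their values were seen. PRKAR2B, a regulatory subunit of protein kinase A, was at 247 and 257 RPM in cells 5 and 8 and at 0.933 to 70.0 RPM in the others. PPARA, a nuclear receptor of lipid metabolism, was at 246 and 257 RPM against 0 to 71.5 RPM. SETDB1, a histone H3 lysine methyltransferase, was at 168 and 242 RPM against 0 to 67.2 RPM. All 3 had reads in most low cells, in contrast to VAX1 or MAP3K5, and PRKAR2B and PPARA reached 15 RPM in all 11 E16 and all 9 gonadal cells.

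On the lower side, DUSP6, PRICKLE1 and VANGL1 were among the genes with the widest gap. DUSP6, a phosphatase that is induced by and dampens ERK signalling, was at 0.843 RPM in cell 5 and 1.11 RPM in cell 8 and at 323, 369, 88.9, 84.2, 709 and 678 RPM in cells 1, 2, 3, 4, 6 and 7. Each of cells 5 and 8 held 1 to 3 reads of it, and the lowest of the low cells was at 84.2 RPM. In the 10 E16 cells DUSP6 reached at most 1.33 RPM and E16 cell 8 was at 104 RPM. PRICKLE1, a core component of planar cell polarity, was at 0 in cells 5 and 8 and at 40.9 to 298 RPM in the low cells. VANGL1, a membrane protein of the same pathway, was at 0 in cells 5 and 8 and at 28.9 to 204 RPM in the others. Of 14 measured planar polarity genes, these 2 were called lower and 0 higher, and of 17 measured genes of FGF signalling DUSP6 was the sole gene called, where 1.31% of all genes were called lower. Both lists were drawn up after these calls had been seen, so the counts say nothing about the pathways.

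ZFAND3, a zinc finger gene, had the widest gap of all, at 0 in cells 5 and 8 and at 54.9 to 221 RPM in the low cells. It was not silent in cells of other stages, with a median of 49.7 RPM over 11 E16 cells and of 82.0 RPM over 9 gonadal cells. TOP2B, DNA topoisomerase II beta, was at 0 and 2.21 RPM against 106 to 371 RPM, and SLC38A1, a glutamine transporter, at 1.69 and 0.369 RPM against 88.8 to 213 RPM. FADS2 (a fatty acid desaturase), SLC35E3 and CCDC86 were at 0 in cells 5 and 8, and FYN (a Src family kinase) and ZNF322A were at most 1.69 RPM there. Their lowest level in a low cell ran from 19.6 RPM (CCDC86) to 56.3 RPM (FYN).

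Some glycolytic enzyme genes were also called lower. ENO1, the glycolytic enzyme enolase, was at 280 and 291 RPM in cells 5 and 8 and had a lowest level of 687, a median of 894 and a highest level of 1540 RPM in the others. TPI1, triosephosphate isomerase, was at 126 and 39.1 RPM against 311, 784 and 1247 RPM, and PKM2, pyruvate kinase, at 218 and 64.6 RPM against 471, 654 and 1015 RPM. GAPDH, at 771 and 818 RPM against 1329 to 2350 RPM, lay outside the range of the low cells but missed the factor of 2. Of 19 glycolysis genes, a list drawn up after the called genes had been seen, 4 were called lower and 1 higher, where 1.31% and 0.82% of all genes were. The median difference of the 19 was -1.12, against -0.46 over all genes tested, and nothing is read from a list chosen in this way. A list of housekeeping genes, 8 measured, had a median difference of -1.20 with 1 gene called lower. The glycolysis gene called higher, the glucose transporter SLC2A14, was at 62.4 and 56.1 RPM against 1.37 to 16.6 RPM. Its near-identical neighbour SLC2A3 was lower, at 43.8 and 26.6 RPM against 133 to 867 RPM. Reads of these copies can be assigned to either, so both values are uncertain. SLC2A1, the other widespread glucose transporter, overlapped, at 964 RPM in cell 5 and 126 RPM in cell 8 against 230 to 1925 RPM.

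B2M, the light chain of MHC class I molecules, was at 50.6 RPM in cell 5 and 21.0 RPM in cell 8 and at 913, 510, 559, 506, 211 and 424 RPM in cells 1, 2, 3, 4, 6 and 7. In the 10 E16 cells it ran from 6.04 to 116 RPM with a median of 9.76 RPM, in E16 cell 8 it was at 1338 RPM, and its median in gonadal cells was 1.24 RPM. Cells 5 and 8 thus lay within the range of the 10 E16 cells and below every low E20 cell. PRTG, protogenin, an immunoglobulin-family receptor of early embryos, was at 68.3 and 31 RPM against 324 to 910 RPM. CENPF, a centromere protein of dividing cells, was at 21.1 and 15.1 RPM against 118 to 641 RPM. It was the only called gene of 24 proliferation genes, where 1.31% of all genes were called lower. The list had a median difference of -0.58. Cell by cell that median was -0.34 for cell 5 and -0.12 for cell 8, where all genes gave -0.10 and -0.85.

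MSX1, HOXB3 and FZD10 were the called genes of the amnion, mesoderm, BMP, HOX and WNT lists. Nothing is read from single calls in lists of this size. MSX1, a homeobox target of BMP signalling, was at 0.843 and 26.9 RPM against 94.9 to 753 RPM. HOXB3 was at 0 and 0.369 RPM against 27.0 to 195 RPM, and FZD10, a WNT receptor, at 9.27 and 0 RPM against 49.0 to 225 RPM. MSX1 was the sole called gene of 17 amnion, 24 mesoderm and 19 BMP signal genes measured, lists that share it. HOXB3 was the sole called gene of 26 HOX genes measured and FZD10 of 23 WNT signal genes, where 1.31% of all genes were called lower. The median differences of the WNT signal, amnion and HOX lists were -3.15, -3.05 and -1.90. Cell 5 gave -1.52 for WNT signal and -1.63 for amnion genes against the low cells, and cell 8 gave -2.67 and -3.28.

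Markers of other lineages were sparse in most of the 8 cells, but cell 1 held blood and endothelial genes, described below. Of 21 endoderm genes 10 reached 15 RPM in at least 1 E20 cell, of 16 trophoblast genes 7, of 20 neural and surface ectoderm genes 5 and of 17 blood and endothelial genes 10, and 0 of any of these lists were called. The epithelial, migration and homing, cell stress, DNA methylation and primed epiblast lists also gave 0 calls, with 17, 16, 18, 10 and 10 genes measured. Of all genes tested 0.82% were called higher and 1.31% lower, so nothing is read from 0 calls in lists of this size. The primed epiblast list had a median difference of -2.31, with -1.90 in cell 5 and -2.77 in cell 8. Trophoblast genes stood at 2.13 in cell 5 and -1.19 in cell 8 against the low cells, and endoderm genes at -0.59 and -0.70. The trophoblast values rest on 7 genes, and that list shares KRT7, GATA3 and TFAP2A with the amnion list, so no cell type is read from them. Ribosomal protein genes, 45 measured, gave 0 calls and a median difference of 0.56, the opposite sign to that of all genes. TET1, an enzyme that oxidises methylated cytosine, was at 153 RPM in cell 5 and 4.80 RPM in cell 8 against 41.4 to 193 RPM, and the maintenance methyltransferase DNMT1 at 100.3 and 167 RPM against 42.2 to 389 RPM, so neither set the groups apart.

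**Figure D3:**
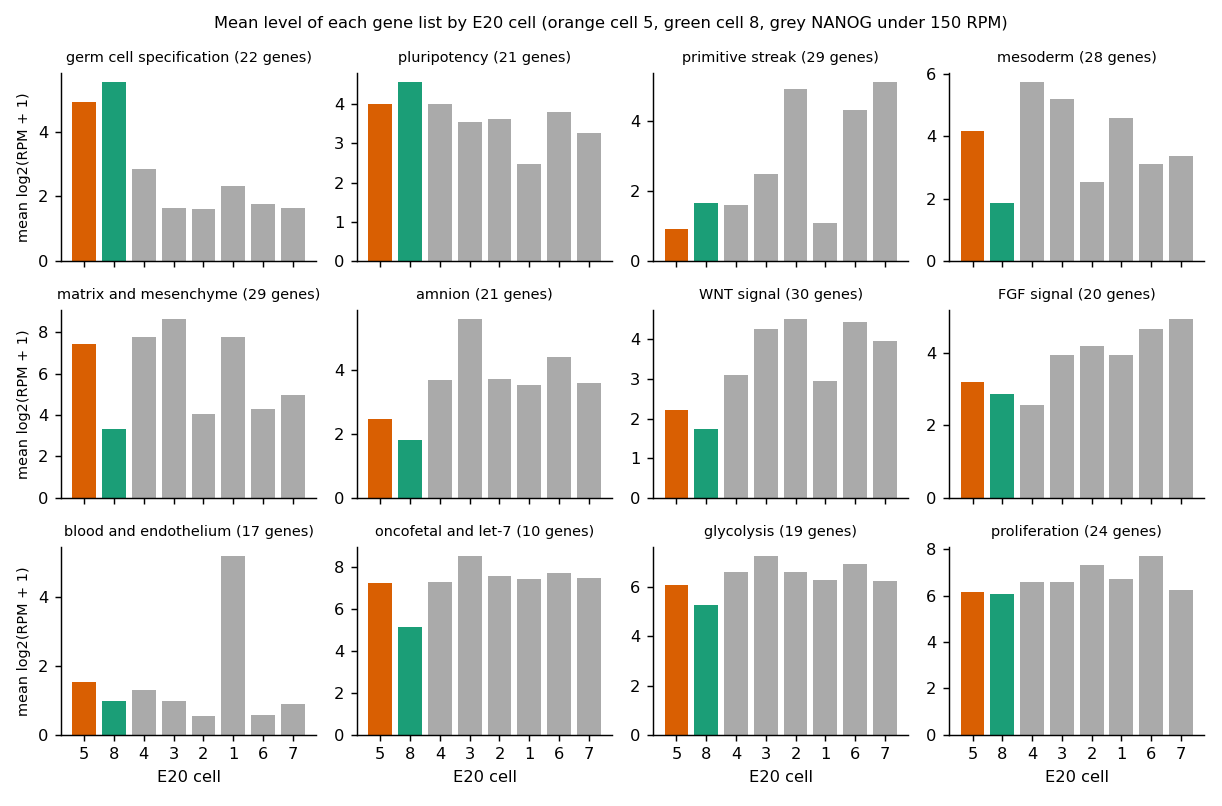
Mean log2(RPM + 1) over each of 12 gene lists (panels, vertical axes starting at 0) in the 8 E20 cells, ordered with cells 5 (orange) and 8 (green) first and the 6 cells with NANOG under 150 RPM in grey. Cell 5 is high for germ cell specification genes (4.93) and for matrix and mesenchyme genes (7.44), and cell 8 is high for the first (5.54) and low for the second (3.33).

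Primitive streak genes gave 0 calls among 21 measured, where 0.82% of all genes tested were called higher and 1.31% lower. Their median difference was -2.73, and the low cells did not share them. T, brachyury, was at 244 and 427 RPM in cells 5 and 8 and at 0.687, 4381, 194, 10.5, 1656 and 3593 RPM in cells 1, 2, 3, 4, 6 and 7. Cells 5 and 8 were within the range of the low cells and near the 10 E16 cells, which had a median of 345 RPM. MSGN1, a factor of presomitic mesoderm, was at 619 to 1471 RPM in cells 2, 6 and 7 and at most 0.843 RPM in the other 5. FGF4, which streak and pluripotent cells secrete, was at 255, 495 and 738 RPM in cells 2, 6 and 7, at 10.9 RPM in cell 3 and at most 0.687 RPM in cells 1, 4, 5 and 8. WNT3A, a WNT ligand of the streak and tail bud, was at 214, 541 and 199 RPM in cells 2, 6 and 7 and at most 2.56 RPM elsewhere at E20.

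The low cells were unlike each other. Cells 2, 6 and 7 carried the streak genes just given, with a mean of 4.31 to 5.12 log2(RPM + 1) over 29 primitive streak genes against 0.92 to 2.49 in the other 5. Cells 1, 3 and 4 carried mesenchymal genes: COL1A1, the collagen I chain, was at 722, 7363 and 2940 RPM in them and at 159 to 207 RPM in cells 2, 6 and 7, and PRRX1, a mesenchymal homeobox factor, at 103, 290 and 297 RPM against at most 2.80 RPM. Cell 1 also held endothelial genes. CDH5, VE-cadherin, was at 1202 RPM in cell 1 and at most 0.843 RPM in the other 7, CD34 was at 636 RPM against at most 2.96 RPM, and SOX7, a SOX17 relative of endothelium, at 320 RPM against at most 58.8 RPM. The list of blood and endothelial genes had a mean of 5.20 in cell 1 and of 0.56 to 1.53 in the others, with 0 reads of TIE1, an endothelial receptor, in any other E20 cell. In cells 5 and 8 CDH5 was at 0.843 and 0.738 RPM. LMO2, of the same list, went the other way and was above the floor in cells 1, 4, 5 and 8, with values given at the end. What the SOX17 of cells 5 and 8 goes with was not tested.

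Cell 4, the low cell with 124 RPM of NANOG, carried some of the called genes and lacked others. A called gene can reach at most about 50% of cell 5's level in a low cell, by the rule itself. Cell 4 held 23.2% of cell 5's level for NANOG, 26.3% for SOX15, 18.6% for TFCP2L1, 19.5% for TCL1B and 14.3% for EFEMP1, the matrix protein fibulin-3, which was at 236 RPM in cell 5, 143 RPM in cell 8, 33.8 RPM in cell 4 and 0 in the other 5. TFAP2C, PRDM14 and CPEB1 were under the floor in it. Of the 97 genes called higher, cell 4 reached 15 RPM for 31, cell 1 for 29, and cells 2, 3, 6 and 7 for 9 to 24. Cell 4 also had HAND1, a factor of extraembryonic mesoderm, at 1533 RPM and FN1, fibronectin, at 1385 RPM. When cell 4 was moved to the high side by a bound of 100 RPM, chosen after its values were seen, 47 genes were called higher and 34 lower, of which 13 and 6 were among the 97 and 155. SOX15, TFCP2L1, TCL1B, EFEMP1 and PRKAR2B are among the 13.

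Cells 5 and 8 also differed from each other. Of 8128 genes with 15 RPM in 1 of them, 2838 (34.9%) were at least 2 units of log2(RPM + 1) higher in cell 5 and 1385 (17%) at least 2 units higher in cell 8. Cell 8 had 2711018 reads and cell 5 1186741, and 6775 genes reached 15 RPM in cell 5 against 5261 in cell 8. The part of the difference in depth and gene number in these counts was not tested.

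**Figure D4:**
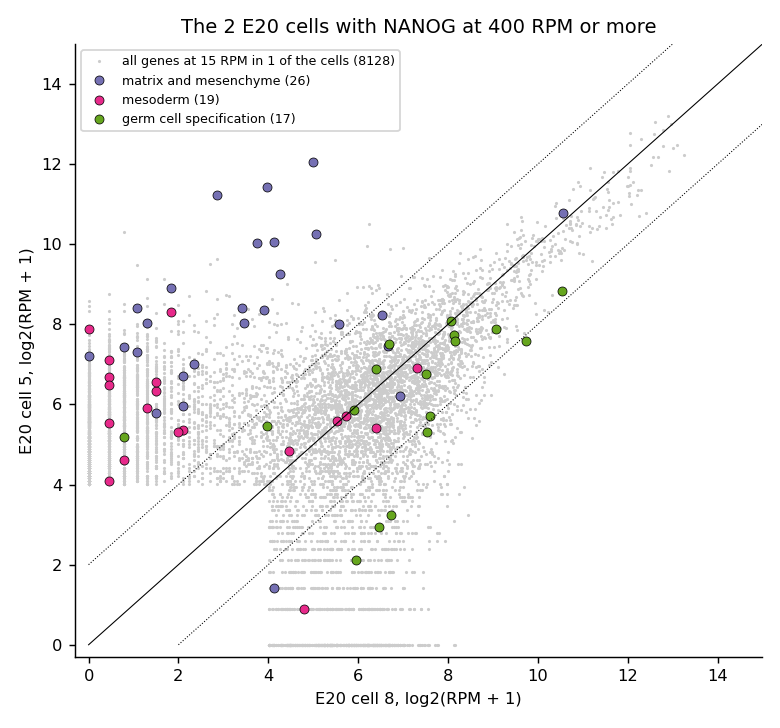
Levels in E20 cell 5 (vertical) against E20 cell 8 (horizontal), both as log2(RPM + 1), for 8128 genes with 15 RPM in at least 1 of them. The solid line marks equal levels and the dotted lines a difference of 2 units. Above the upper dotted line lie 21 of 29 matrix and mesenchyme genes, COL1A1 at 2777 against 14.8 RPM among them, and 13 of 24 mesoderm genes, while 6 of 18 germ cell specification genes lie outside the dotted lines. Of all 11827 genes with 15 RPM in any E20 cell, 2838 lie above the upper dotted line and 1385 below the lower.

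The genes higher in cell 5 included much of the mesenchymal programme. FN1 was at 4265 RPM in cell 5 and 31 RPM in cell 8, COL1A1 at 2777 and 14.8 RPM, and COL6A1, a collagen VI chain, at 2380 and 6.27 RPM. For COL6A1 cell 5 was above all low cells, which ran from 4.08 to 1752 RPM, and cell 8 was below 5 of the 6. PRRX1 was at 234 RPM in cell 5 and 0 in cell 8, HAND1 at 318 and 2.58 RPM, TCF21, a factor of coelomic mesenchyme, at 137 and 0.369 RPM, and TBX20, a T-box factor of heart and extraembryonic mesoderm, at 89.3 and 0.369 RPM. Of 29 matrix and mesenchyme genes 21 were higher in cell 5 and 1 in cell 8 (DCN, decorin, at 1.69 and 16.6 RPM), and of 24 mesoderm genes 13 and 1 (MSX1). Of all 11827 genes tested, 2838 were higher in cell 5 and 1385 in cell 8. Against the low cells the matrix list stood at 1.36 in cell 5 and -3.19 in cell 8, and the mesoderm list at -0.01 and -3.62. Summed over the matrix and mesenchyme list, cell 5 had 18776 RPM with 25 genes at the floor, cell 8 had 2082 RPM with 10, and the low cells had 2418 to 32950 RPM. Whether RNA of a mesenchymal cell entered the library of cell 5 was not tested, and no doublet caller was run on so few cells.

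The widest differences toward cell 5 were PENK, proenkephalin, at 1256 against 0.738 RPM, ITGA8, an integrin chain, at 383 against 0 RPM, and DEPTOR, an inhibitor of the kinase mTOR, at 348 against 0 RPM. PENK was at 2226 and 2980 RPM in cells 3 and 4 and at most 157 RPM in the other low cells. KCTD12, PRSS23, ADAMTS9 and MGC16121 were the others, with 319 to 710 RPM in cell 5 and at most 1.11 RPM in cell 8. Of 26 HOX genes 3 were higher in cell 5 and 2 in cell 8, where 2838 and 1385 of all 11827 genes tested were. HOXA10, the HOX gene of highest level in cell 5, was at 120 RPM in cell 5, 0.738 RPM in cell 8, and 99.0, 35.2 and 159 RPM in cells 1, 3 and 4.

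Toward cell 8 the widest differences were AK4, a mitochondrial adenylate kinase, at 286 RPM against 0 in cell 5, CDC6, a DNA replication licensing factor, at 280 against 0 RPM, and ARHGAP21, a GTPase-activating protein, at 220 against 0 RPM. GALNT12, UBE3C, WLS (the carrier of WNT proteins), TADA1 and YIPF1 followed, with 187 to 214 RPM in cell 8 and 0 in cell 5. None of these 8 is a germ cell gene of the lists used. Of the 18 germ cell specification genes measured 5 were higher in cell 8 (TFAP2C, PRDM1, ELAVL2, NANOS3 and DPPA5) and 1 in cell 5 (ALPL). Among all 11827 genes tested, 1385 were higher in cell 8 and 2838 in cell 5. WNT pathway genes were uneven: LEF1, a nuclear mediator of WNT signals, was at 0 and 67.9 RPM in cells 5 and 8, WNT5A at 0 and 52.7 RPM and RSPO3, a WNT enhancer, at 53.9 and 0 RPM, while the low cells held 114 to 332, 44.0 to 932 and 4.51 to 417 RPM. MKI67, the proliferation antigen, was at 146 RPM in cell 5 and 2.58 RPM in cell 8, and CCNE1, cyclin E1, at 0 and 56.1 RPM.

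The called genes were then looked up in cells of other stages, which the rule at E20 did not use. Of the 97 genes higher in cells 5 and 8, 63 (64.9%) had an E16 median of at least 15 RPM, and 65 (67%) without E16 cell 8. Among all 3908 genes with 15 RPM in cells 5 and 8 the shares were 92.3% and 91.7%. In gonadal cells 63 of the 97 (64.9%) reached that median, against 87.7% of the 3908. Of the 155 lower genes 122 (78.7%) had an E16 median of at least 15 RPM, and 116 (74.8%) without E16 cell 8, against 94.9% and 94.3% of 2641 genes with 15 RPM in all 6 low cells. The call itself picks genes that are low in some E20 cells, so nothing is read from the lower shares. SOX15, TFAP2C and TFCP2L1 reached 15 RPM in all 11 E16 and all 9 gonadal cells, PRDM14 in 9 and 4 of them, and MAP3K5 in 3 and 1.

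Over 11651 genes with 15 RPM in at least 3 of the 34 cells, Pearson's r of log2(RPM + 1) between cells 5 and 8 was 0.53. Cell 5 had its highest r with E16 cell 8 (0.63), as did all 6 low cells (0.64 to 0.74), and, among low cells, with cell 1 (0.62), and its lowest among low cells with cell 7 (0.50). Cell 8 had its highest r with E16 cell 10 (0.62), values of 0.55 to 0.62 over the 11 E16 cells, and 0.48 to 0.52 over the 6 low cells. Its r was 0.54 to 0.58 over gonadal cells, 0.56 to 0.59 over E13 and E14 cells and 0.51 to 0.57 over E17 cells. Cell 8 shares the code MS09 with the E16 cells, and whether the code has a part in its r with them was not tested. Cells 1, 3 and 4, which carried mesenchymal genes, had r of 0.59 to 0.62 with cell 5, above cells 2, 6 and 7 at 0.50 to 0.52. These values are across genes of pairs of single cells, share the depth and detection of each cell, and carry no p.

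**Figure D5:**
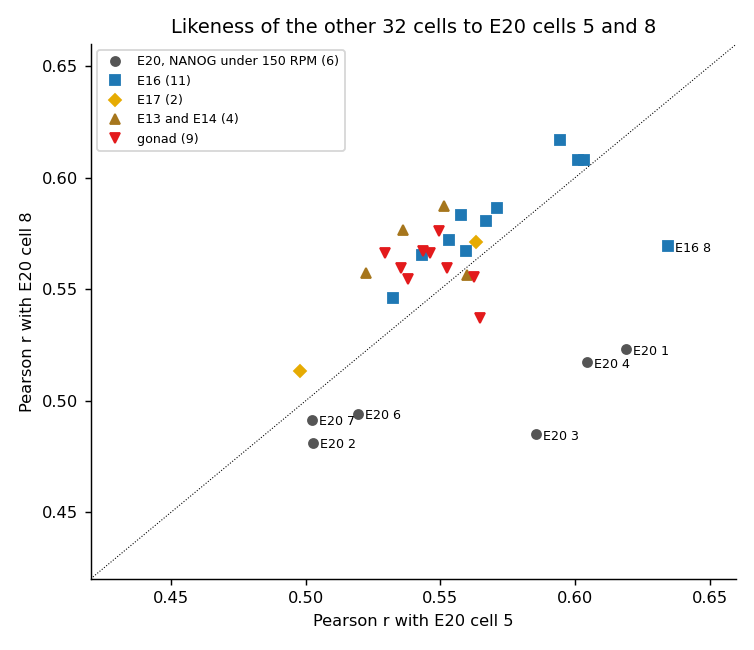
Pearson r across 11651 genes of each of the other 32 cells with E20 cell 5 (horizontal) and with E20 cell 8 (vertical). Symbols give the stage and the dotted line marks equal r. The 6 low E20 cells and E16 cell 8 lie below the line, as do 3 cells of other stages, and the other 10 E16 cells lie above it.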

How the data were processed

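Transcripts of 34 single cells were measured, and the 8 from E20 are described. The authors deposited log2 values of RPM + 1 for 28551 genes, per the file headers and the values: back-transformed, low values were whole multiples of 1 read within 0.1 read for 99.8% to 100% of an E20 cell's low values, which gave the depths. Tools named without a role in the submitters' processing notes are TopHat 1.4.1, Cufflinks 2.2.0 and cutadapt 1.3. The genome build is not given in the sources used here, nor is the annotation.

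Values were back-transformed to RPM with Python 3.11.15, numpy 2.4.6, pandas 2.3.3 and scipy 1.17.1. Intervals cover counting error only, since cDNA was amplified without molecular identifiers. Doublets were not called. Genes are named by the 17683 human symbols of the table. Named genes are the 12 with the widest gap each way (1 lower gene is not reported here), the 8 with the widest difference between cells 5 and 8 at 50 RPM or more, and members of 27 gene lists, 3 of which were added after values were seen. Members and lists were chosen with earlier results of these data known. The calling step was run on simulated counts with planted changes, which checks that step and is no test of the calls in these cells. Alternatives covered floor, gap, pseudocount, scaling, label code and each cell left out.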

Additional observations from a re-analysis of the deposited data

Results flagged for a closer look

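The 8 E20 cells were screened for single cells lying apart in 139 quantities (reads, gene numbers, list means and the genes named in the text), by how far the outermost cell lay from the next relative to the spread of the 8, and 22 stood out. A chance rate of about 1 in 20 would hold only for quantities with a normal spread. Some of those screened are genes with reads in a single cell, such as RNF17 and TIE1. Others, such as ARHGAP21 and WLS, were named in the text for their difference between cells. That rate therefore cannot be applied here, and no excess is read from the 22. Many of the quantities share cells, so single entries carry little weight. Gene and list values here are log2(RPM + 1).

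Cell 1 lay apart for endothelial and germ cell genes: its mean over the blood and endothelium list was 5.20, CDH5 was at 10.23, CD34 at 9.32 and TIE1 at 6.75, while POU5F1 was low at 3.67 and CD38 was at 3.50. Cell 8 lay apart in depth, with 2711018 reads, and in RNF17 at 6.50 and STK31 at 5.83, which no other E20 cell held. It was also the lowest cell for the oncofetal list (mean 5.13), LIN28B (1.98), TET1 (2.53), HAND1 (1.84) and MKI67 (1.84). Whether depth or the label code, which set cell 8 apart as well, has a part in these values was not tested.

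Cell 5, one of the cells with NANOG, was alone in having 0 for ARHGAP21, CCNE1, LEF1, WLS and WNT5A. Its TCL1A at 2.38 and DAZL at 0.88 were the highest of the 8 cells but rested on 4.21 and 0.843 RPM, under the floor of 15 RPM. Cell 7 was alone at 0 for SETDB1.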

How the results depend on the processing

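The counts of 97 genes higher and 155 lower depended on the bounds. They were 60 and 63 with a floor of 50 RPM, 531 and 416 with any gap above 0, and 37 and 74 with a gap of 2 log2 units. With no floor 284 were lower. Within code MS08 they were 595 and 291. Leaving out each cell in turn gave 121 to 691 higher and 187 to 634 lower, and every such set held all 97 or all 155 genes, since fewer cells make the call easier to meet. The bound of 100 RPM for NANOG, added after the data were seen, gave 47 and 34. A pseudocount of 10 RPM gave 77 and 123, a floor of 5 RPM 116 and 219.

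Between cells 5 and 8 the counts of 2838 and 1385 became 1791 and 904 with a pseudocount of 10 RPM, and 1362 and 853 with a floor of 50 RPM. A difference of 3 log2 units gave 2469 and 992.

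The list median of blood and endothelium genes turned from -1.05 to 0.062 without cell 1, and leaving out each cell in turn gave -1.35 to 0.062. Of 324 list medians under alternatives, 292 moved by less than the spread of the list mean between the low cells, 31 moved by more and 1, given above, was at least 1 unit from 0 and changed sign. Medians nearer to 0 changed sign too: matrix and mesenchyme went from -0.67 to 1.36 and BMP signal from -0.32 to 0.53 without cell 8, endoderm from -0.78 to 0.11 with medians over cells, and trophoblast from 0.039 to -1.19 without cell 5.

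No paired analysis was possible because the labels give no replicate numbers and no test was made. With 2 cells on the high side from unnamed animals, differences between animals, dissections or cell types cannot be told apart from NANOG.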

Other observations

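XIST, the RNA that silences 1 X chromosome in females, was at 0 to 2.22 RPM in all 8 E20 cells and reached 15 RPM in 10 of 11 E16 cells. The gene paired with human EIF1AY, a Y-linked gene in humans that the table places on chromosome 20, was at 6.74 RPM in cell 5, 50.2 RPM in cell 8 and 8.87 to 118 RPM in the other E20 cells. LMO2, a transcription cofactor of blood and endothelium, was at 119 and 157 RPM in cells 5 and 8, at 250 RPM in cell 1 and 34.6 RPM in cell 4, and at most 1.87 RPM in cells 2, 3, 6 and 7. Ribosomal protein genes had a mean log2(RPM + 1) of 11.06 in cell 5 and 11.42 in cell 8, against 10.59 to 11.10 in the low cells.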
